A study of Mus musculus with 11 samples.

Results

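The genes described here are those that dendritic cells switch on when they mature, together with the ligands, cytokines and enzymes by which mature dendritic cells restrain T cells. A list of 50 such genes was drawn up by function, and its members are the 46 of them that are in the deposited table of normalized values, which holds 11118 genes. All 46 also passed the low-count filter of the test, which kept 10951 of 24421 genes (above 1 CPM, the count of a gene scaled to a common library size, in at least 4 pools). RNA-seq was done on cDC1s, conventional type 1 dendritic cells, sorted from B16 melanoma, a tumor line of C57BL/6 mice. Each of the 11 samples was an independent pool of cells from 2 to 4 mice of one genotype, and the study used mice of both sexes aged 6 to 14 weeks. There were 4 control pools without Cre, of which replicates 1 to 3 were XBP1 fl/fl and replicate 4 was XBP1 fl/fl, IRE1 fl/fl. The 4 XBP1ΔDC pools came from XBP1 fl/fl mice with CD11c-CRE, which deletes exon 2 of Xbp1, and the 3 XBP1ΔDCIRE1truncDC pools, called double-deficient below, came from XBP1 fl/fl, IRE1 fl/fl mice with CD11c-CRE, which also deletes exons 20 to 21 of Ern1 and leaves an IRE1 protein without its RNase domain. The floxed Xbp1 allele is thus present in all 3 groups. CD11c is made by most dendritic cells and by many macrophages, so deletion was not limited to the sorted cells.

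A dendritic cell that takes up antigen in a tumor matures in steps. It raises costimulatory ligands, NF-κB factors and cytokines that drive T cells, and with them a set of brakes such as PD-L1, PD-L2 and CD200, so that activating and restraining molecules often sit on the same mature cell. Such cells bundle actin with fascin, express the chemokine receptor Ccr7 and leave for the lymph node. IRE1 is a sensor of unfolded protein in the endoplasmic reticulum that splices the Xbp1 transcript into the form that makes the factor XBP1s, and when Xbp1 is lost the IRE1 RNase can cut other transcripts.

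The pools held 21089065 to 26843486 counts. Xbp1 stood at 244 to 271 CPM in control, 130 to 165 CPM in XBP1ΔDC and 179 to 236 CPM in double-deficient pools, and counts per gene do not show which exons remain. Ern1 was at 9.82 to 19.0 CPM in control, 9.74 to 15.6 CPM in XBP1ΔDC and 17.0 to 26.0 CPM in double-deficient pools. All 13 cDC1 markers that were looked for were detected in every pool, Xcr1 at 751 to 989 CPM. Their summed level was 16373 to 17752 CPM in control, 14246 to 15345 CPM in XBP1ΔDC and 15116 to 15760 CPM in double-deficient pools. By this sum both deleted groups lay below the controls. Naaa, a large part of the sum, was at 3926 to 4356 CPM in control, 2705 to 3052 CPM in XBP1ΔDC and 3220.2 to 3415 CPM in double-deficient pools. The markers did not all move this way. Of the 13, 4 were higher than control in XBP1ΔDC (median log2 fold change -0.13) and 5 in double-deficient cDC1s (median -0.041). Zbtb46 was at 165 to 205 CPM in control, 191 to 195 CPM in XBP1ΔDC and 206 to 249 CPM in double-deficient pools. The 13 macrophage and monocyte markers had the largest sum of the other lists, 1383 to 1997 CPM in control, 1398 to 1855 CPM in XBP1ΔDC and 1146 to 1942 CPM in double-deficient pools, most of it from Ccr2, Lyz2 and Cd68. Of 12 such markers tested, 9 were higher than control in XBP1ΔDC, with a median log2 fold change of 0.41, and 7 in double-deficient cDC1s, with a median of 0.085. Lyz2 was highest in double-deficient replicate 3 (1132 CPM), whereas the complement genes C1qa, C1qb and C1qc, at 22.4 CPM or less, were highest in XBP1ΔDC replicate 3. The 5 neutrophil markers in the table summed to 0.194 to 1.87 CPM and were highest in double-deficient replicate 3, with Retnlg at 0 in every pool. The 7 T cell markers summed to 1.88 to 12.2 CPM and the 7 NK cell markers to 8.08 to 25.3 CPM, and double-deficient replicate 1 was the highest in both lists. The 4 tested markers of plasmacytoid dendritic cells were all lower in both deleted groups, with a median log2 fold change of -0.39 in XBP1ΔDC and -0.62 in double-deficient cDC1s, and their list summed to 110.3 to 127 CPM in control, 90.1 to 113 CPM in XBP1ΔDC and 95.2 to 107 CPM in double-deficient pools. The 7 melanoma markers summed to 8.96 to 60.9 CPM in control, 12.2 to 64.7 CPM in XBP1ΔDC and 8.74 to 11.02 CPM in double-deficient pools. Xist was at 0 and 0.435 CPM in double-deficient replicates 1 and 3 and at 15.5 to 70.2 CPM in the other pools, so the mix of male and female mice was not the same in all pools. The part of these differences in the results was not tested.

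In double-deficient cDC1s, 40 of the 46 members were higher than in control cDC1s, and none passed the test. Their median log2 fold change was 0.74, against -0.0031 over all genes tested, and the members with the greatest differences were Aldh1a2, a retinoic acid enzyme (1.33), the transporter gene Slco5a1 (1.03), Fscn1, which encodes fascin (1.02), Tnfrsf4, which encodes OX40 (1.02) and the annexin gene Anxa3 (1.003). Without double-deficient replicate 3 these values were 1.58 for Aldh1a2, 0.13 for Slco5a1, 0.61 for Fscn1, 0.40 for Tnfrsf4 and 0.34 for Anxa3. The value for Aldh1a2 was 0.91 without double-deficient replicate 2. A gene was called a differentially expressed gene (DEG) when edgeR's quasi-likelihood test gave an adjusted p under 0.05 and the fold change was above 1.5. By that rule 0 of 46 members were DEGs, where 0.21% of all genes were, and the lowest adjusted p from edgeR among the members was 0.173, for Aldh1a2. Without adjustment, 29 of 46 members had a p under 0.05 and were higher, against 5.73% of all genes, and 0 of 46 had one and were lower, against 5.44% of all genes. All pools of the double-deficient group lay above all control pools for 10 members, against 4.31% of all genes, and below them for 0 members, against 5.81% of all genes. DESeq2 in place of edgeR called 2 members, Cd200 and Aldh1a2, and 0.868% of all genes. With limma-voom 0 members and 0.183% of all genes were called. The count of 29 fell to 7 without double-deficient replicate 3, to 19 without control replicate 2 and to 18 without control replicate 4. Without both double-deficient replicate 3 and control replicate 2 it was 2, and the median member was then at 0.29 on the log2 scale. In bulk pools, a larger share of mature cells and more RNA per mature cell cannot be told apart.

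XBP1ΔDC cDC1s also had 40 of 46 members above control, by a smaller margin. The median member was at 0.42 on the log2 scale, against 0.005 over all genes, and the highest were Apol7c (0.69), Fabp5 (0.68) and Slco5a1 (0.68). No member was a DEG by edgeR, where 0.493% of all genes were. DESeq2 and limma-voom called 0 members as well, and 0.685% and 0.484% of all genes. Pdcd1lg2, Cd200, Relb and Fabp5 had an unadjusted p under 0.05 and were higher, which makes 4 of 46 against 2.67% of all genes. Tgfb1 was the 1 member with such a p that was lower, against 4.95% of all genes, and also the 1 member whose XBP1ΔDC pools all lay below the controls, against 3.67% of all genes. No member had all XBP1ΔDC pools above all controls, against 1.63% of all genes. These 5 members became 23 without control replicate 3, 20 without XBP1ΔDC replicate 3 and 11 without double-deficient replicate 3. The last pool is in the same fit but in neither group compared. They became 1 without control replicate 2, without control replicate 4 or without XBP1ΔDC replicate 1, and 3 without XBP1ΔDC replicate 2. The median member stood at 0.23 without XBP1ΔDC replicate 1 and at 0.27 without control replicate 2. Both comparisons share the control pools.

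Set directly against XBP1ΔDC, double-deficient cDC1s were higher in 42 of 46 members, with a median of 0.27 on the log2 scale against 0.0015 over all genes. No member was a DEG by edgeR, where 0.0731% of all genes were. DESeq2 and limma-voom called 0 members, and 0.329% and 0.0731% of all genes. Aldh1a2 and Nfkb2 had an unadjusted p under 0.05 and were higher, 2 of 46 against 2.79% of all genes, and 0 were lower with such a p, against 2.5% of all genes. No member had all pools of one group above the other, against 3.11% of all genes with the double-deficient pools higher and 2.96% with them lower. The excess of higher members rested on double-deficient replicate 3. Without that pool 24 of 46 were higher and the median member was at 0.029. Without XBP1ΔDC replicate 3 the median was 0.13 and without XBP1ΔDC replicate 1 it was 0.44. The 2 members with an unadjusted p under 0.05 became 11 without XBP1ΔDC replicate 1 and 5 without double-deficient replicate 1. The count was 1 without control replicate 1, without double-deficient replicate 3, or without XBP1ΔDC replicate 2, 3 or 4.

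**Figure D1:**
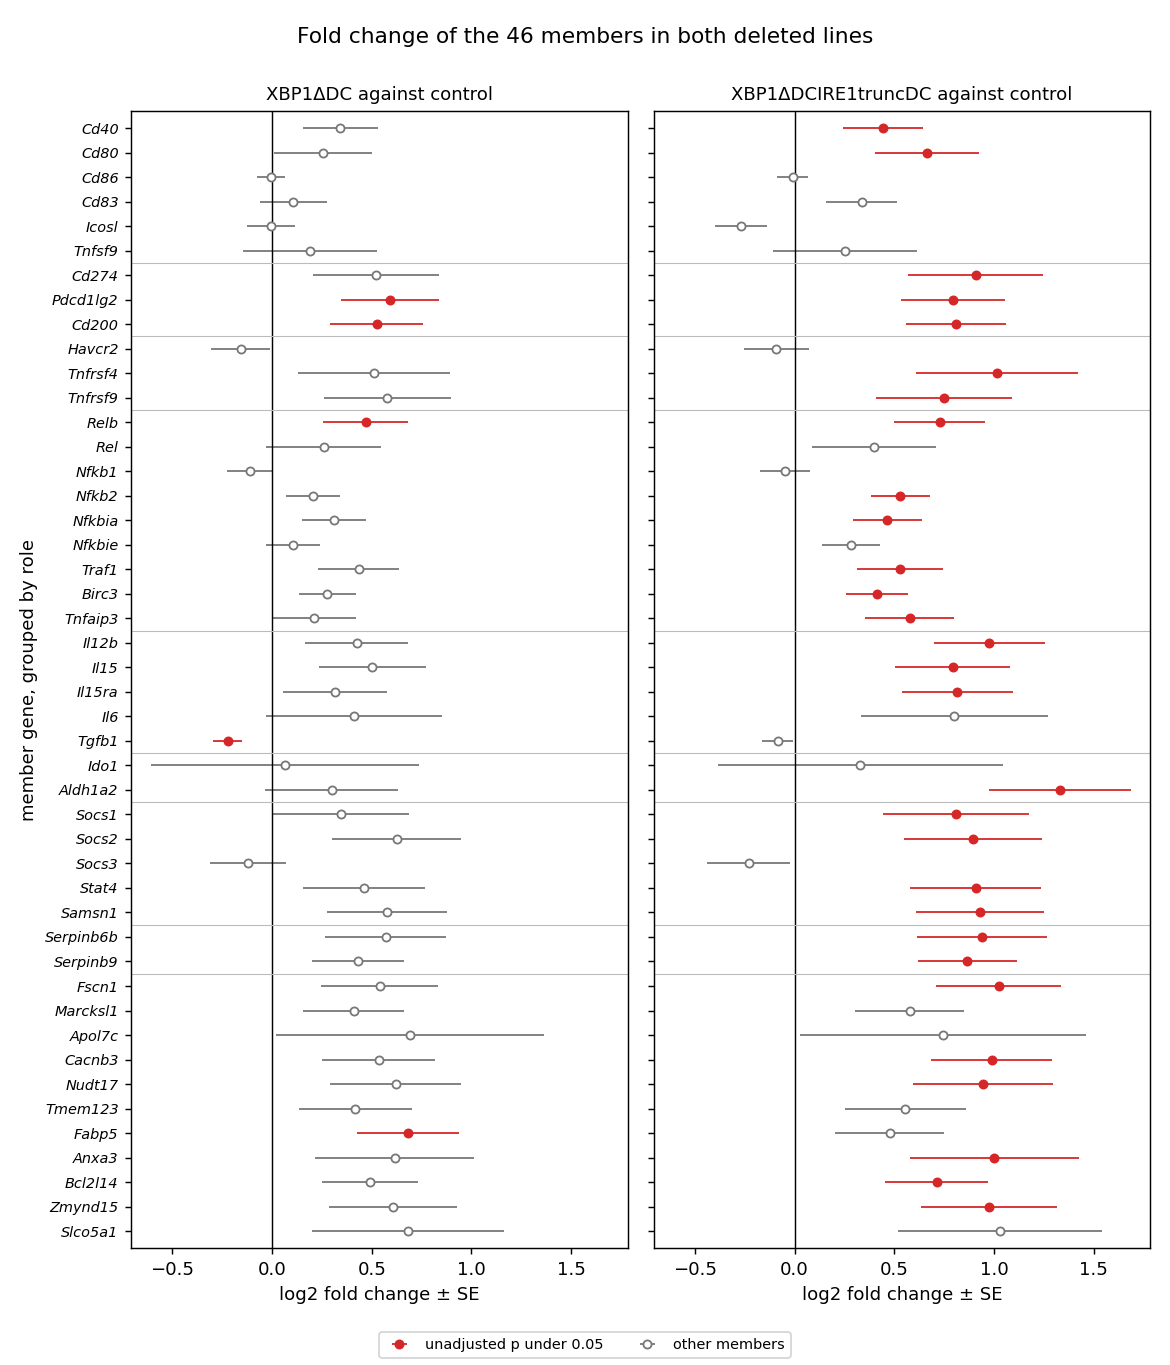
Log2 fold change against control (horizontal axis, with SE bars from edgeR) of each of the 46 members (vertical axis, grouped by role) in XBP1ΔDC (left) and double-deficient cDC1s (right). Filled red points had an unadjusted p under 0.05, 5 on the left and 29 on the right, and 40 of 46 points lie to the right of 0 in each panel.

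The members went up and down together from pool to pool. Each member's log2 CPM was turned into a z score over the 11 pools, and the scores were averaged over the members. The mean score was -0.056, -1.32, 0.18 and -0.85 in control replicates 1 to 4, 0.87, 0.016, -0.56 and 0.050 in XBP1ΔDC replicates 1 to 4, and 0.31, 0.096 and 1.26 in double-deficient replicates 1 to 3. Control replicate 2 was the lowest pool and double-deficient replicate 3 the highest, and the 3 groups overlapped. Double-deficient replicate 3 held the highest value of 29 of 46 members (63%, against 13.7% of all genes tested), and control replicate 2 held the lowest value of 31 (67.4%, against 10.6%). Within XBP1ΔDC, replicate 1 was the highest pool for 36 members (78.3%, against 26.3% of all genes) and replicate 3 the lowest for 31 (67.4%, against 25%). Control replicate 2 was also the deepest pool, with 26843486 counts, and double-deficient replicate 3 had 23716798. The part of depth in this order was not tested. The group means of this score were -0.51 ± 0.70 (SD, n = 4) in control, 0.094 ± 0.59 (SD, n = 4) in XBP1ΔDC and 0.56 ± 0.62 (SD, n = 3) in double-deficient pools.

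**Figure D2:**
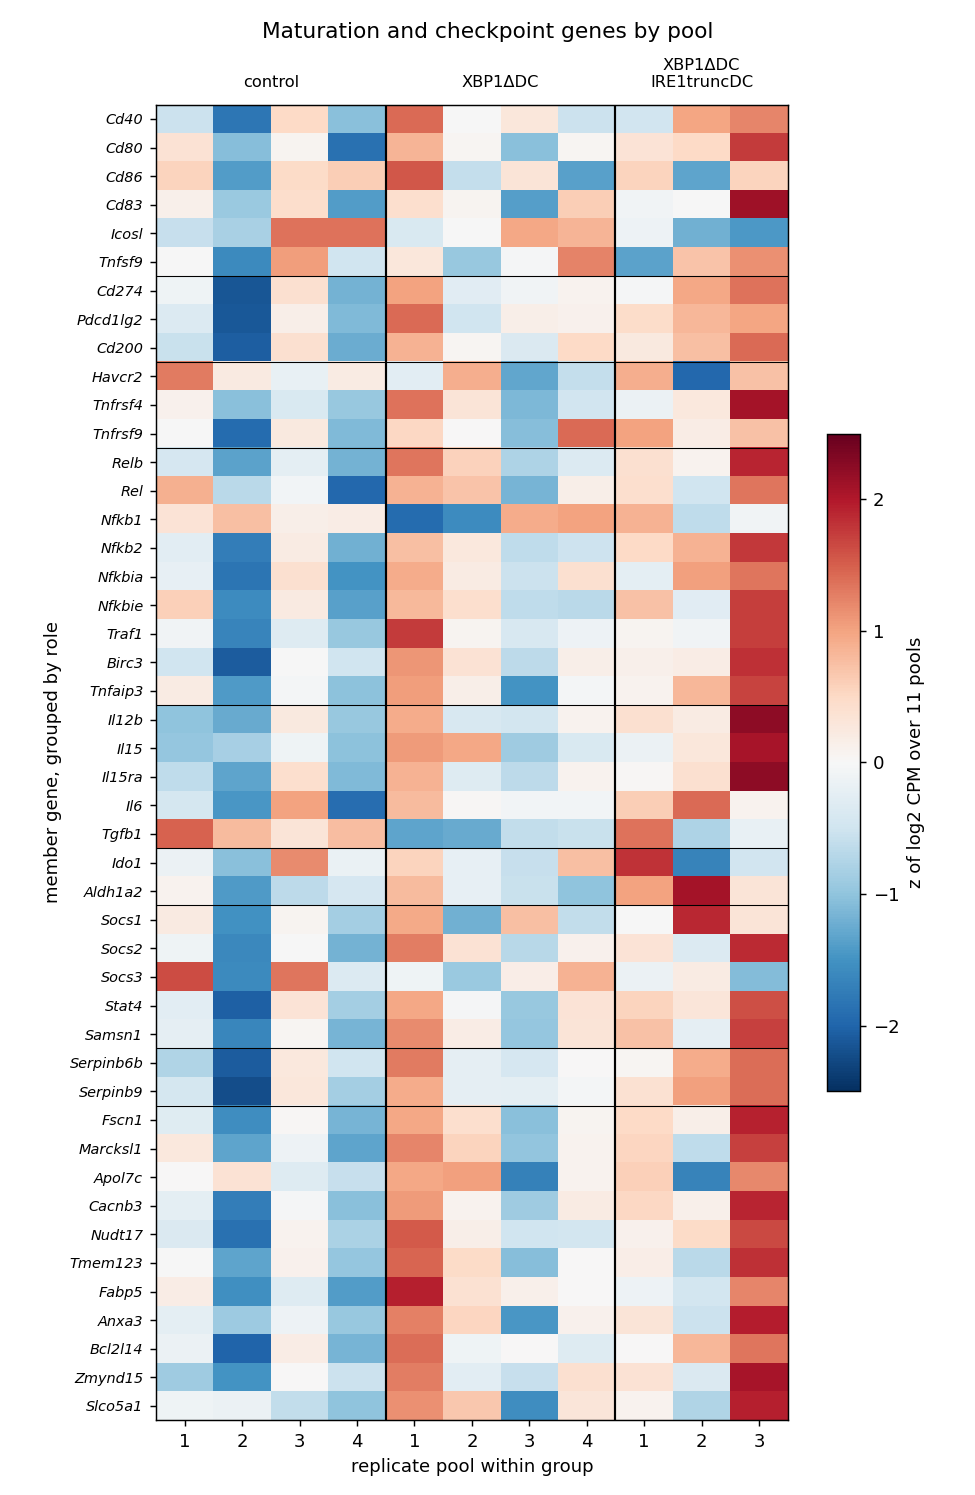
Heat map of the z score of log2 CPM (colour) of the 46 members (rows, grouped by role) in the 11 pools (columns, by group and replicate). Columns of one colour show the shared pattern, with control replicate 2 blue (mean score -1.32) and double-deficient replicate 3 red (mean score 1.26), while Nfkb1, Tgfb1 and Icosl break it.

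Most members shared this pattern and a few did not. For each member, its deviations from the group means were compared with the mean deviation of the other members over the 11 pools. Pearson's r was above 0.8 for 28 members and the median was 0.85, while 3.26% of the other genes had r above 0.8 with the members' mean and their median was -0.027. Cacnb3 (0.99), Socs2 (0.97), Fscn1 (0.97), Samsn1 (0.97) and Stat4 (0.96) were the closest members. Nfkb1 (-0.50), Tgfb1 (-0.22) and Icosl (-0.17) had negative values. The 10 other genes closest to the members' mean were Cd63 (r = 0.99), Mreg (0.98), Rftn1 (0.98), Ccr7 (0.98), Pdlim4 (0.98), Ccser2 (0.98), Slc2a6 (0.98), Rras2 (0.97), Tmem131 (0.97) and Gucd1 (0.96). Cd63 encodes a tetraspanin of late endosomes and Ccr7 the receptor that guides mature dendritic cells to lymph nodes. Ccr7 stood at 1709, 933, 1839 and 1007 CPM in control, 2774, 1955, 1211 and 1727 CPM in XBP1ΔDC and 2199, 1644 and 3209 CPM in double-deficient pools, and its highest and lowest pools were again double-deficient replicate 3 and control replicate 2. All genes of a pool share its depth and scaling factor, so these values describe likeness and carry no test.

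Levels per length differed widely between members. CPM divided by the total length of the gene's exons in GENCODE vM21 was highest in controls for Cd83 (908 ± 156 CPM per kb, SD, n = 4), an early surface marker of maturation, followed by Tmem123 (396 ± 94.3), Fscn1 (245 ± 75.0) and Il12b (212 ± 59.8). The neighbours Fscn1 and Il12b did not differ beyond their spread. Ido1 (0.537 ± 0.337 CPM per kb), Slco5a1 (0.751 ± 0.177) and Il6 (0.765 ± 0.507) were lowest and within each other's spread. The 4 listed genes left out of the normalized table were at or near 0. Il12a, which encodes the p35 chain that joins Il12b in IL-12, had 0 counts in all 11 pools, which allows up to 3 counts or 0.111 to 0.14 CPM. Il10 had 5 counts at most in a pool and Ido2 13 at most. Il4i1, an amino acid oxidase of mature dendritic cells, had 12, 7, 11 and 9 counts in control, 22, 17, 12 and 12 in XBP1ΔDC and 10, 10 and 25 in double-deficient pools, so that the groups overlapped. In GENCODE vM21, 83.9% of the exon bases of Il4i1 are also exon bases of Tbc1d17 on the other strand, and such reads may have been counted for either gene or for none.

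The costimulatory members had a median log2 fold change of 0.30 in double-deficient and 0.15 in XBP1ΔDC cDC1s, and none passed edgeR's adjusted test. Of 6 members, 4 were higher than control in each deleted group, where 49.4% of all genes were higher in double-deficient and 51.2% in XBP1ΔDC pools. An unadjusted p under 0.05 with a higher level was found for 2 of them in double-deficient pools, against 5.73% of all genes, and for 0 in XBP1ΔDC, against 2.67%. Cd40 is the receptor through which helper T cells license dendritic cells, and its gene lies at chr2:165055627-165072948 (GRCm38, plus strand). It was at 73.5, 53.9, 94.1 and 65.1 CPM in control, 117, 83.3, 89.4 and 73.3 CPM in XBP1ΔDC and 74.4, 106 and 112 CPM in double-deficient pools. Control replicate 2 was lowest and XBP1ΔDC replicate 1 highest, and all groups overlapped. The log2 fold change of Cd40 was 0.34 (SE 0.187, adjusted p = 0.758 from edgeR) in XBP1ΔDC and 0.44 (SE 0.201, adjusted p = 0.433 from edgeR) in double-deficient cDC1s. Cd80, a ligand of CD28 and CTLA-4, was at 26.2, 16.6, 23.9 and 12.8 CPM in control, 30.7, 23.8, 16.7 and 23.8 CPM in XBP1ΔDC and 26.0, 27.3 and 41.1 CPM in double-deficient pools. Double-deficient replicate 3 stood above all other pools, and the remaining double-deficient pools were close to control replicate 1. Its log2 fold change was 0.26 (SE 0.244, adjusted p = 0.935 from edgeR) in XBP1ΔDC and 0.66 (SE 0.261, adjusted p = 0.351 from edgeR) in double-deficient cDC1s, the latter 0.42 without double-deficient replicate 3. Cd86, the other ligand of these receptors, was nearly flat at 329, 296, 327 and 329.8 CPM in control, 347, 309, 325 and 296 CPM in XBP1ΔDC and 329, 297 and 329 CPM in double-deficient pools. Its highest pool was 1.17 times its lowest, and its log2 fold change was -0.0053 (SE 0.0714, adjusted p = 0.995 from edgeR) and -0.0099 (SE 0.0771, adjusted p = 0.98 from edgeR) in the same order, turning to 0.037 in double-deficient cDC1s without double-deficient replicate 2. Cd83 (1904 to 3852 CPM over all pools), Tnfsf9, which encodes the 4-1BB ligand (28.8 to 84.9 CPM), and Icosl, the ligand of ICOS (61.6 to 91.6 CPM), had p above 0.05 in every comparison. Icosl was the member furthest below control in double-deficient cDC1s, with a log2 fold change of -0.27 (SE 0.13, adjusted p = 0.476 from edgeR).

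The genes of the ligands that restrain T cells had positive log2 fold changes in both deleted groups, and none of the 3 passed edgeR's adjusted test in either. All 3 had an unadjusted p under 0.05 in double-deficient pools, against 5.73% of all genes, and Pdcd1lg2 and Cd200 in XBP1ΔDC, against 2.67%. Cd274, which encodes PD-L1, lies at chr19:29367455-29388095 (GRCm38, plus strand) next to Pdcd1lg2, which encodes PD-L2, at chr19:29410919-29471161 on the same strand. Cd274 was at 136, 53.9, 171 and 83.6 CPM in control, 226, 125, 137 and 149 CPM in XBP1ΔDC and 140.3, 222 and 264 CPM in double-deficient pools. Double-deficient replicate 1 lay between control replicates 1 and 3, so the groups overlapped. Its log2 fold change was 0.52 (SE 0.316, adjusted p = 0.799 from edgeR) in XBP1ΔDC and 0.91 (SE 0.337, adjusted p = 0.327 from edgeR) in double-deficient cDC1s, and an antisense transcript shares 14.1% of its exon bases. Pdcd1lg2 was at 43.5, 22.7, 52.2 and 33.0 CPM in control, 83.1, 41.3, 52.3 and 51.4 CPM in XBP1ΔDC and 58.5, 67.1 and 71.3 CPM in double-deficient pools. All 3 double-deficient pools lay above all controls, while XBP1ΔDC replicates 2 to 4 lay within or close to the control range. Its log2 fold change was 0.59 (SE 0.244, adjusted p = 0.579 from edgeR) and 0.79 (SE 0.261, adjusted p = 0.274 from edgeR) in the same order, the former 0.35 without XBP1ΔDC replicate 1. Cd200, whose product engages the inhibitory receptor CD200R, was at 63.5, 36.9, 88.9 and 49.6 CPM in control, 105, 78.5, 67.8 and 92.0 CPM in XBP1ΔDC and 84.3, 101 and 128 CPM in double-deficient pools. Control replicate 3 reached into both deleted groups, and control replicate 2 was lowest again. Its log2 fold change was 0.52 (SE 0.233, adjusted p = 0.643 from edgeR) in XBP1ΔDC and 0.81 (SE 0.249, adjusted p = 0.238 from edgeR) in double-deficient cDC1s, and with DESeq2 the latter was 0.82 (adjusted p = 0.0499 from DESeq2).

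**Figure D3:**
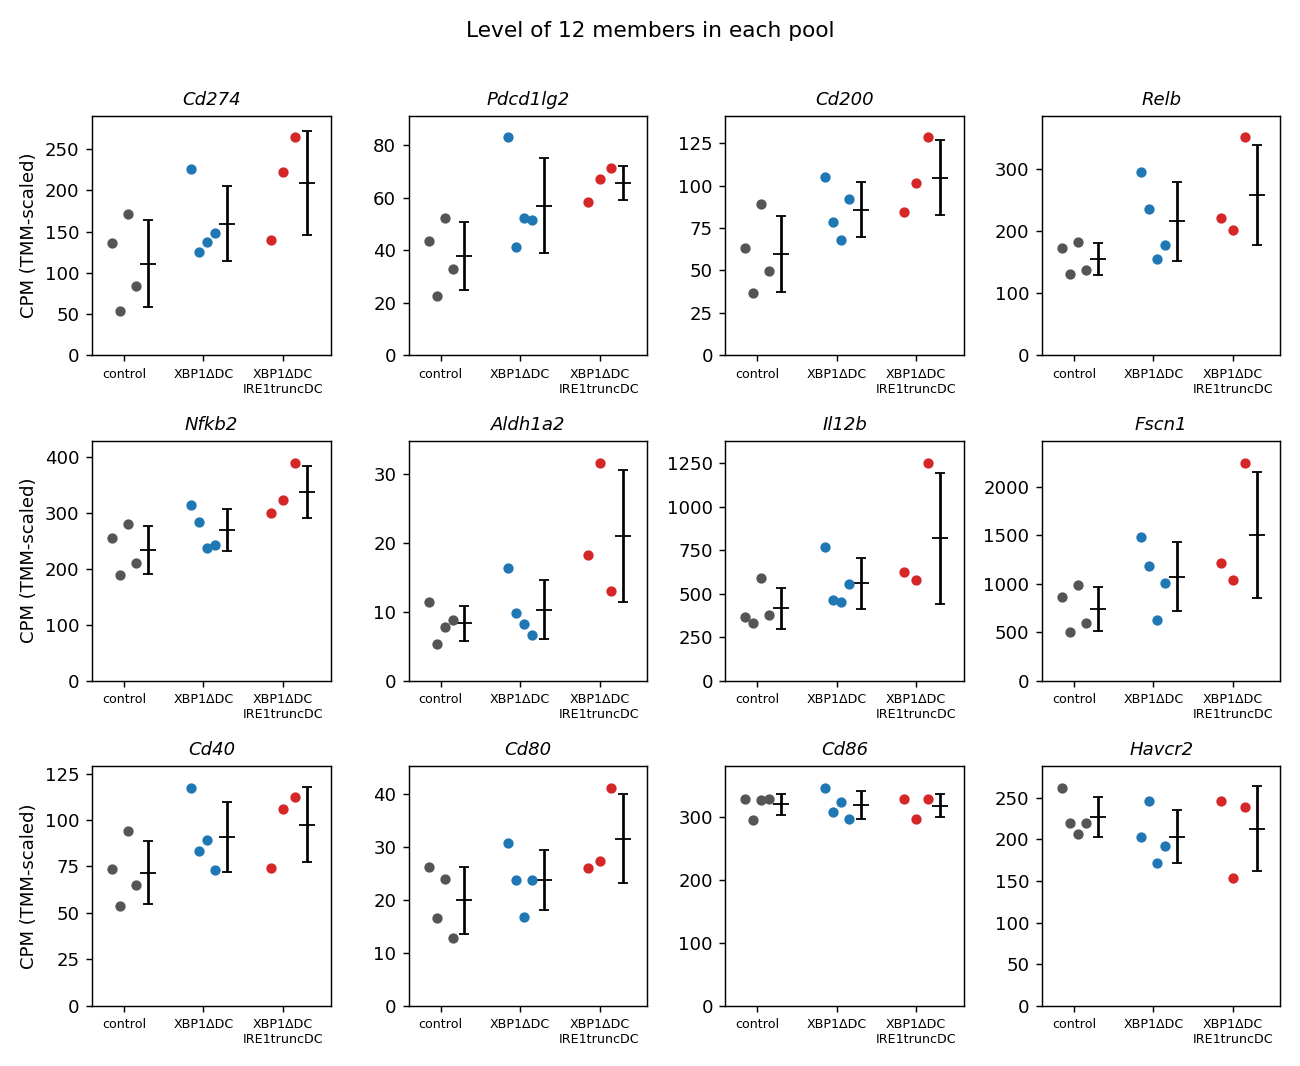
CPM after TMM scaling (vertical axes, from 0) of selected members in control (grey), XBP1ΔDC (blue) and double-deficient pools (red), one point a pool, with the mean and SD of each group as a bar beside the points. The double-deficient pools of Pdcd1lg2, Relb, Nfkb2, Aldh1a2 and Fscn1 lie above every control, the other members overlap, and Cd86 stays between 296 and 347 CPM.

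Receptors better known from T cells were less uniform. Tnfrsf4, which encodes OX40, and Tnfrsf9, which encodes 4-1BB, had an unadjusted p under 0.05 in double-deficient pools, and Havcr2, which encodes TIM-3 and marks cDC1s as well as exhausted T cells, did not. This makes 2 of 3 higher with such a p, against 5.73% of all genes, and in XBP1ΔDC it was 0 of 3, against 2.67%. Tnfrsf4 was at 35.8, 20.6, 28.4 and 21.6 CPM in control, 64.9, 39.8, 19.98 and 27.1 CPM in XBP1ΔDC and 31.6, 38.5 and 91.5 CPM in double-deficient pools. Double-deficient replicate 3 was highest, XBP1ΔDC replicate 1 second, and the groups overlapped. In double-deficient cDC1s the log2 fold change of Tnfrsf4 was 1.02 (SE 0.406, adjusted p = 0.361 from edgeR), and 0.40 without double-deficient replicate 3. Tnfrsf9 was at 38.4, 16.9, 43.0 and 24.0 CPM in control, 48.1, 38.8, 24.6 and 71.0 CPM in XBP1ΔDC and 59.6, 41.7 and 52.9 CPM in double-deficient pools. Its highest pool was XBP1ΔDC replicate 4, and control replicate 3 exceeded double-deficient replicate 2. The log2 fold change of Tnfrsf9 was 0.58 (SE 0.319, adjusted p = 0.762 from edgeR) in XBP1ΔDC and 0.75 (SE 0.34, adjusted p = 0.436 from edgeR) in double-deficient cDC1s. T cell markers were highest in double-deficient replicate 1, where Cd3e was at 3.56 CPM, and that pool was the highest of its group for Tnfrsf9 and the lowest of its group for Tnfrsf4. The part of T cell RNA in these values was not tested. Havcr2 was at 262, 219.9, 206 and 219 CPM in control, 203, 246, 171 and 192 CPM in XBP1ΔDC and 246, 154 and 239 CPM in double-deficient pools. Double-deficient replicate 2 was its lowest pool, and its log2 fold change was -0.16 (SE 0.149, adjusted p = 0.932 from edgeR) and -0.091 (SE 0.161, adjusted p = 0.902 from edgeR) in the same order, the latter turning to 0.097 without that pool.

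The NF-κB members belong to a pathway that works by release. Inhibitor proteins hold dimers of Rel proteins in the cytoplasm until signals from CD40 or danger receptors free them, and in the alternative branch the precursor p100, made by Nfkb2, is cut to p52, which partners RelB. Of 9 members, 8 were higher than control in each deleted group, and those with an unadjusted p under 0.05 were 6 in double-deficient pools, against 5.73% of all genes, and 1 in XBP1ΔDC, against 2.67%. Among all genes, 4.79% of 32851 RefSeq promoter windows (GRCm38.p6, 250 bases before to 50 bases after the start) hold the letters GGGNNTTNCC on either strand, a form of the κB motif. Windows were found for 33 of the 46 members, and 8 of 42 member windows (19%) held the letters, from 6 genes: Il6, Nfkb2, Nfkbia, Rel, Tnfaip3 and Tnfrsf9. By gene this was 18.2% of the 33 members with a window and 5.48% of all 27025 genes with one, and 2 of the Nfkb2 windows overlap and share 1 match. The windows of the 4 of these genes with an unadjusted p under 0.05 in double-deficient cDC1s, and of Rel, are shown 5′ to 3′ on the gene's strand with the matched letters in capitals, at chr19:46304487-46304786 (Nfkb2, plus), chr12:55492598-55492897 (Nfkbia, minus), chr10:19015361-19015660 (Tnfaip3, minus), chr4:150927749-150928048 (Tnfrsf9, plus) and chr11:23770920-23771219 (Rel, minus).
Nfkb2: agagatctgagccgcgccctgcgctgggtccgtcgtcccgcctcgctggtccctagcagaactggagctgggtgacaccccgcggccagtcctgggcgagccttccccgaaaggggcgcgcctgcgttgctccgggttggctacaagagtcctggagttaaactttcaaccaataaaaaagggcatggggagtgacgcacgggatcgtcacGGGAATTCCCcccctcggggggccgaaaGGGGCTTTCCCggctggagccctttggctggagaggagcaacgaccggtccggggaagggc
Nfkbia: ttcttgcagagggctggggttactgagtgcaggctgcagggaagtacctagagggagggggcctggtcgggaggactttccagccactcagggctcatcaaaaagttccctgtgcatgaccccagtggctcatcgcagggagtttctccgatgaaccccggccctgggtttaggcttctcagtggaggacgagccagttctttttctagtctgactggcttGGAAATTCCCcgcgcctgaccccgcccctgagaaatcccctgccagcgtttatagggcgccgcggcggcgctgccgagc
Tnfaip3: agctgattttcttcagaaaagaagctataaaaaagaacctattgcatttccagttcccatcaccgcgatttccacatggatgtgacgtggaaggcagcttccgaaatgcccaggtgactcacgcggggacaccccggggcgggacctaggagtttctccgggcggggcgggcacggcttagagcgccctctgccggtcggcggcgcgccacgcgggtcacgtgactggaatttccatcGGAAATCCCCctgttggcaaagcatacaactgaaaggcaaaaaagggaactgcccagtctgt
Tnfrsf9: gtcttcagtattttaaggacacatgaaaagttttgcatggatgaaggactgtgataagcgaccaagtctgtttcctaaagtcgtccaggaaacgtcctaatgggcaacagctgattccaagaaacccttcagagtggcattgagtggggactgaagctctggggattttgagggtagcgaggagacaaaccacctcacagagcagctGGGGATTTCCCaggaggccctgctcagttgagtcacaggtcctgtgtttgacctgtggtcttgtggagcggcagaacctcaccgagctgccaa
Rel: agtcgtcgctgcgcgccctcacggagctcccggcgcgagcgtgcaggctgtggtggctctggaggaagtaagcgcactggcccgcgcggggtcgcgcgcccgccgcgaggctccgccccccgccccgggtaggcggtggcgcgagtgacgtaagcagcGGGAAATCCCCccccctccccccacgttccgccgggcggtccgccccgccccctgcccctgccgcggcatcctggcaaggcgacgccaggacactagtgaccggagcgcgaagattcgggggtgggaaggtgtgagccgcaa
A match describes the letters in a window and is no sign of a bound factor.

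The matches printed here begin 39, 11 and 10 bases before the start in the Nfkb2 window, 29 bases before it in Nfkbia, 12 in Tnfaip3, 43 and 42 in Tnfrsf9 and 92 and 91 in Rel, where pairs that differ by 1 base overlap in a longer run of capitals. The other Nfkb2 windows hold their shared match 10 bases after one start and 225 before the other. The other windows of Tnfaip3 and Tnfrsf9 held no match, nor did those of the NF-κB members Traf1, Birc3 and Nfkbie. Il6, with a match 44 bases before its start, was among the lowest members.

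Nfkb2 and Relb, the genes of the alternative branch, were higher in double-deficient pools than in every control. Nfkb2 was at 255, 188, 281 and 209 CPM in control, 314, 284, 236 and 242 CPM in XBP1ΔDC and 299, 323 and 389 CPM in double-deficient pools. Control replicate 3, the highest control, was below the lowest double-deficient pool, and XBP1ΔDC replicates 3 and 4 lay among the controls with replicates 1 and 2 above them. In Nfkb2 the log2 fold change was 0.21 (SE 0.137, adjusted p = 0.833 from edgeR) in XBP1ΔDC and 0.53 (SE 0.146, adjusted p = 0.185 from edgeR) in double-deficient cDC1s, and 0.32 (SE 0.147, adjusted p = 0.931 from edgeR) between these groups, where it was 0.21 without double-deficient replicate 3. With DESeq2 the value of Nfkb2 in double-deficient cDC1s was 0.54 (adjusted p = 0.0356 from DESeq2). It was not called there because its fold change was under the limit of 1.5. Relb was at 173, 131, 182 and 137 CPM in control, 296, 235, 155 and 177 CPM in XBP1ΔDC and 222, 202 and 351 CPM in double-deficient pools. Double-deficient replicate 3 and XBP1ΔDC replicate 1 were the highest pools, and XBP1ΔDC replicates 3 and 4 lay among the controls. The log2 fold change of Relb was 0.47 (SE 0.213, adjusted p = 0.646 from edgeR) and 0.73 (SE 0.228, adjusted p = 0.251 from edgeR) in the same order. Without XBP1ΔDC replicate 1 the former was 0.28, and without double-deficient replicate 3 the latter was 0.44. Nfkb1, which makes p105 and p50 of the classical branch, was at 112, 118, 109.7 and 110.3 CPM in control, 85.5, 89.2, 121 and 122 CPM in XBP1ΔDC and 119.5, 99.9 and 107 CPM in double-deficient pools. Its levels ran against the other members, with XBP1ΔDC replicates 1 and 2 lowest, and its log2 fold change was -0.11 (SE 0.117, adjusted p = 0.945 from edgeR) and -0.050 (SE 0.126, adjusted p = 0.94 from edgeR), the latter turning to 0.0079 without double-deficient replicate 2. Rel, which encodes c-Rel, ranged from 72.8 to 229 CPM and had a log2 fold change of 0.40 (SE 0.311, adjusted p = 0.712 from edgeR) in double-deficient cDC1s.

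Of the inhibitors and adaptors of the pathway none passed edgeR's adjusted test, and in double-deficient pools Traf1 and Birc3 cleared the controls while Nfkbia, Tnfaip3 and Nfkbie overlapped them. Nfkbia, which encodes IκBα and is itself induced by NF-κB, was at 271, 189, 310.1 and 204 CPM in control, 348, 297, 251 and 310.2 CPM in XBP1ΔDC and 269, 356 and 383 CPM in double-deficient pools. Double-deficient replicate 1 lay below control replicates 1 and 3, and the groups overlapped. Nfkbia had a log2 fold change of 0.47 (SE 0.174, adjusted p = 0.328 from edgeR) in double-deficient cDC1s. Tnfaip3, which encodes the deubiquitinase A20, was at 120.5, 76.6, 112 and 85.2 CPM in control, 152, 118, 74.6 and 112 CPM in XBP1ΔDC and 116, 143 and 182 CPM in double-deficient pools and had a log2 fold change of 0.58 (SE 0.223, adjusted p = 0.344 from edgeR), with control replicate 1 above double-deficient replicate 1. Traf1, a signaling adaptor of TNF receptors, was at 295, 195, 278 and 235 CPM in control, 483, 308, 272 and 292 CPM in XBP1ΔDC and 308, 296 and 481 CPM in double-deficient pools. The lowest double-deficient pool was just above the highest control, and the log2 fold change was 0.43 (SE 0.204, adjusted p = 0.668 from edgeR) in XBP1ΔDC and 0.53 (SE 0.218, adjusted p = 0.381 from edgeR) in double-deficient cDC1s, the latter 0.27 without double-deficient replicate 3. Birc3, which encodes the ubiquitin ligase cIAP2, was at 108, 79.6, 118 and 108 CPM in control, 147, 127, 105 and 122 CPM in XBP1ΔDC and 122, 123 and 169 CPM in double-deficient pools. Its double-deficient pools also cleared every control, by a small margin, and its log2 fold change was 0.41 (SE 0.154, adjusted p = 0.328 from edgeR), or 0.24 without the same pool. Nfkbie, which encodes IκBε, ranged from 117 to 198 CPM with a log2 fold change of 0.28 (SE 0.145, adjusted p = 0.511 from edgeR).

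Of 39 other genes of the NF-κB pathway that were tested, 30 were higher than control in double-deficient pools (76.9%, against 49.4% of all genes), and 6 had an unadjusted p under 0.05 and were higher, against 5.73% of all genes. Bcl2l1, which encodes the survival protein BCL-XL, was the 1 DEG among them, where 0.21% of all genes were. It stood at 54.2, 51.1, 50.4 and 41.9 CPM in control, 52.6, 82.8, 52.8 and 65.2 CPM in XBP1ΔDC and 88.5, 79.2 and 87.2 CPM in double-deficient pools, and all 3 double-deficient pools were above every control. Its log2 fold change was 0.78 (SE 0.149, adjusted p = 0.0479 from edgeR). The gene was called in 12 of 22 alternative settings, DESeq2 and limma-voom among them. The adjusted p was 0.0817 to 0.135 when any one control or double-deficient pool was left out (0.133 without control replicate 2 and 0.123 without double-deficient replicate 3) and 0.0672 without XBP1ΔDC replicate 4, each time from edgeR and with a log2 fold change of at least 0.71. Without both control replicate 2 and double-deficient replicate 3 it was 0.257 from edgeR, and with the replicate number as a block 0.183. Tnip1, an A20-binding inhibitor (0.61, adjusted p = 0.1002 from edgeR), Traf2 (0.37), Nfkbib, which encodes IκBβ (0.49), Nfkbiz, a nuclear IκB (0.73), and Cflar, which encodes the caspase-8 inhibitor c-FLIP (0.55), were next by p. In XBP1ΔDC cDC1s, 27 of the 39 were higher (69.2%, against 51.2% of all genes), with Bcl2l1 (0.36), Traf2 (0.24) and Tbk1 (0.29) at an unadjusted p under 0.05, against 2.67% of all genes, and Sharpin, a subunit of the linear ubiquitin ligase, was lower (-0.37, adjusted p = 0.0873 from edgeR). Between the deleted groups Sharpin was higher in double-deficient cDC1s (0.56, adjusted p = 0.061 from edgeR), followed by Bcl2l1 (0.42), Tnip1 (0.35), Cflar (0.50), Nfkbiz (0.55) and Tnfaip2 (0.59), all with an unadjusted p under 0.05, against 2.79% of all genes.

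Among the cytokine members, Il12b and the IL-15 pair had an unadjusted p under 0.05 in double-deficient pools, which makes 3 of 5 against 5.73% of all genes, and Il6 did not. Il12b was at 367, 333, 591 and 375 CPM in control, 768, 463, 450.5 and 555 CPM in XBP1ΔDC and 625, 580.0 and 1255 CPM in double-deficient pools. Double-deficient replicate 3 was highest by far, double-deficient replicate 2 lay just under control replicate 3, and the groups overlapped. For Il12b the log2 fold change was 0.42 (SE 0.259, adjusted p = 0.799 from edgeR) in XBP1ΔDC and 0.98 (SE 0.277, adjusted p = 0.197 from edgeR) in double-deficient cDC1s, and the latter was 0.53 without double-deficient replicate 3. Il15, which sustains CD8+ T cells and NK cells, was at 9.41, 9.85, 12.6 and 9.24 CPM in control, 18.8, 18.3, 9.65 and 11.53 CPM in XBP1ΔDC and 12.5, 14.4 and 26.5 CPM in double-deficient pools. In Il15 the log2 fold change was 0.79 (SE 0.287, adjusted p = 0.318 from edgeR) in double-deficient cDC1s and 0.39 without double-deficient replicate 3. Il15ra, the chain that presents IL-15 to neighbouring cells, was at 25.3, 19.9, 36.6 and 21.4 CPM in control, 42.7, 28.2, 25.1 and 32.4 CPM in XBP1ΔDC and 31.8, 36.3 and 68.2 CPM in double-deficient pools and had a log2 fold change of 0.82 (SE 0.278, adjusted p = 0.289 from edgeR), or 0.40 without that pool. In both genes the other double-deficient pools lay near the level of control replicate 3. Il6 was counted at 0.893 to 4.38 CPM. Tgfb1, which encodes a cytokine that curbs T cells, went the other way at 162, 153, 147 and 153 CPM in control, 127, 128, 136 and 136 CPM in XBP1ΔDC and 161, 134 and 141 CPM in double-deficient pools. All 4 XBP1ΔDC pools were below all controls, double-deficient replicates 2 and 3 were below them too, and double-deficient replicate 1 was within their range. Tgfb1 had a log2 fold change of -0.22 (SE 0.0729, adjusted p = 0.361 from edgeR) in XBP1ΔDC and -0.084 (SE 0.0788, adjusted p = 0.773 from edgeR) in double-deficient cDC1s, and leaving out any pool kept the former between -0.244 and -0.195.

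Aldh1a2 and Ido1 encode enzymes by which dendritic cells can shape regulatory T cells, the first by making retinoic acid and the second by using up tryptophan. Aldh1a2 was at 11.4, 5.29, 7.80 and 8.79 CPM in control, 16.3, 9.83, 8.23 and 6.56 CPM in XBP1ΔDC and 18.3, 31.6 and 13.0 CPM in double-deficient pools. All 3 double-deficient pools were above every control, and replicate 2 of that group was well above the rest, unlike the pattern of most members. The log2 fold change of Aldh1a2 was 0.30 (SE 0.334, adjusted p = 0.946 from edgeR) in XBP1ΔDC and 1.33 (SE 0.355, adjusted p = 0.173 from edgeR) in double-deficient cDC1s, and 1.03 (SE 0.353, adjusted p = 0.724 from edgeR) between them, falling to 0.61 without double-deficient replicate 2. Against control it was 0.91 without that pool, and 1.34 with DESeq2 on all pools (adjusted p = 0.0176 from DESeq2). Ido1 stood at 0.805, 0.444, 1.87 and 0.803 CPM in control, 1.27, 0.777, 0.612 and 1.44 CPM in XBP1ΔDC and 2.74, 0.280 and 0.652 CPM in double-deficient pools, near the limit of detection, and its log2 fold change against control of 0.33 (SE 0.717, adjusted p = 0.925 from edgeR) turned to -0.090 with limma on the deposited log2 values. It was 0.087 without control replicate 2, 0.79 without double-deficient replicate 2 and 0.63 without double-deficient replicate 3.

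Of 5 genes that relay or damp cytokine signals, none passed edgeR's adjusted test, and 4 had an unadjusted p under 0.05 and were higher in double-deficient pools (against 5.73% of all genes), with 0 in XBP1ΔDC (against 2.67%). Socs2, a feedback inhibitor of cytokine receptors, was at 43.3, 22.6, 45.1 and 27.3 CPM in control, 79.1, 52.9, 33.8 and 47.6 CPM in XBP1ΔDC and 52.7, 39.0 and 101 CPM in double-deficient pools, with a log2 fold change of 0.90 (SE 0.345, adjusted p = 0.342 from edgeR) in double-deficient cDC1s that dropped to 0.41 without double-deficient replicate 3. Samsn1, an adaptor protein of immune cells, was at 160.2, 88.1, 180.0 and 107 CPM in control, 291, 190.4, 117 and 201 CPM in XBP1ΔDC and 241, 160.3 and 364 CPM in double-deficient pools, with 0.93 (SE 0.323, adjusted p = 0.301 from edgeR) and 0.58 without that pool. Stat4, the factor that acts downstream of the IL-12 receptor, was at 136, 62.5, 177 and 105 CPM in control, 233, 151, 101 and 177 CPM in XBP1ΔDC and 194, 174 and 309.8 CPM in double-deficient pools, with 0.91 (SE 0.328, adjusted p = 0.315 from edgeR), and a transcript on the same strand shares 26.7% of its exon bases. In all 3 genes double-deficient replicate 3 was highest, control replicate 2 lowest, and the groups overlapped. Socs1, a feedback inhibitor of interferon receptors, was at 43.7, 20.4, 40.6 and 27.3 CPM in control, 59.2, 23.5, 54.7 and 30.4 CPM in XBP1ΔDC and 39.2, 89.0 and 45.3 CPM in double-deficient pools. Its high value came from double-deficient replicate 2, and its log2 fold change of 0.81 (SE 0.365, adjusted p = 0.435 from edgeR) was 0.36 without that pool. Socs3 ranged from 126 to 250.2 CPM, highest in control replicate 1, with a log2 fold change of -0.23 (SE 0.209, adjusted p = 0.765 from edgeR).

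The serpins of the list inhibit proteases inside the cell, and Serpinb9 protects it from granzyme B. Serpinb9 was at 537, 279, 699 and 463 CPM in control, 885, 581, 577 and 621 CPM in XBP1ΔDC and 726, 923 and 1056 CPM in double-deficient pools. The double-deficient pools cleared all controls, and control replicate 2 was far below the rest. For Serpinb9 the log2 fold change was 0.43 (SE 0.232, adjusted p = 0.754 from edgeR) in XBP1ΔDC and 0.87 (SE 0.248, adjusted p = 0.201 from edgeR) in double-deficient cDC1s. Serpinb6b was at 127, 70.5, 199 and 141 CPM in control, 314, 160.4, 147 and 178 CPM in XBP1ΔDC and 181, 267 and 327 CPM in double-deficient pools, and control replicate 3 exceeded double-deficient replicate 1. In Serpinb6b the log2 fold change was 0.57 (SE 0.304, adjusted p = 0.75 from edgeR) and 0.94 (SE 0.324, adjusted p = 0.298 from edgeR) in the same order. Both belong to families of close paralogs, so reads shared with other copies may have been lost or misplaced.

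The remaining 11 members include the cytoskeleton genes of migrating dendritic cells, and all 11 were higher than control in both deleted groups, where 49.4% of all genes were in double-deficient and 51.2% in XBP1ΔDC pools. Those with an unadjusted p under 0.05 were 6 in double-deficient pools, against 5.73% of all genes, and 1 in XBP1ΔDC, against 2.67%. Fscn1, whose product bundles the actin of dendrites, was at 862, 504, 989.5 and 597 CPM in control, 1481, 1178, 628 and 1007 CPM in XBP1ΔDC and 1213, 1040.5 and 2248 CPM in double-deficient pools. Double-deficient replicate 3 was highest, control replicate 2 lowest, and double-deficient replicate 2 was just above control replicate 3. The log2 fold change of Fscn1 was 0.54 (SE 0.293, adjusted p = 0.754 from edgeR) in XBP1ΔDC and 1.02 (SE 0.313, adjusted p = 0.238 from edgeR) in double-deficient cDC1s, the latter 0.61 without double-deficient replicate 3. Cacnb3, a calcium channel subunit, was at 220.1, 119, 240.1 and 158 CPM in control, 381, 253, 169 and 266 CPM in XBP1ΔDC and 301, 257 and 539 CPM in double-deficient pools. The double-deficient pools again cleared the controls, and the log2 fold change was 0.54 (SE 0.284, adjusted p = 0.748 from edgeR) and 0.99 (SE 0.303, adjusted p = 0.238 from edgeR) in the same order, the latter 0.60 without that pool. Nudt17 was at 29.9, 15.3, 36.5 and 24.6 CPM in control, 69.3, 37.4, 28.2 and 28.7 CPM in XBP1ΔDC and 36.8, 43.6 and 73.2 CPM in double-deficient pools, with 0.95 (SE 0.35, adjusted p = 0.326 from edgeR) in double-deficient cDC1s and 0.60 without double-deficient replicate 3, where the lowest pool was just above control replicate 3. Zmynd15 was at 34.8, 26.9, 51.1 and 40.6 CPM in control, 87.8, 45.4, 40.0 and 60.6 CPM in XBP1ΔDC and 59.5, 43.8 and 123 CPM in double-deficient pools, with a log2 fold change of 0.98 (SE 0.341, adjusted p = 0.305 from edgeR) in double-deficient cDC1s and 0.43 without double-deficient replicate 3. Anxa3, an annexin that binds membrane lipids, was at 41.8, 30.0, 44.5 and 29.5 CPM in control, 88.9, 62.1, 22.9 and 49.9 CPM in XBP1ΔDC and 55.8, 36.2 and 127 CPM in double-deficient pools, with 1.003 (SE 0.425, adjusted p = 0.393 from edgeR) and 0.34 without that pool. In both genes double-deficient replicate 3 was well above the rest. Bcl2l14, of the BCL2 family, was at 266, 141, 298 and 188 CPM in control, 453, 269.5, 280.2 and 251 CPM in XBP1ΔDC and 282, 372 and 442 CPM in double-deficient pools, with 0.71 (SE 0.258, adjusted p = 0.317 from edgeR) in double-deficient cDC1s. Genes on the other strand share 14.1% of the exon bases of Bcl2l14, 12.5% of those of Zmynd15 and 14.9% of those of Tnfsf9, and 2 such genes share 11.6% and 6.52% of those of Nfkb2. Fabp5, which binds fatty acids, was at 34.0, 19.1, 28.7 and 19.95 CPM in control, 61.5, 36.4, 33.3 and 32.1 CPM in XBP1ΔDC and 30.6, 27.4 and 48.2 CPM in double-deficient pools. It was the member with such a p in XBP1ΔDC, where replicate 1 was highest, and its log2 fold change was 0.68 (SE 0.256, adjusted p = 0.487 from edgeR) in XBP1ΔDC and 0.48 (SE 0.275, adjusted p = 0.571 from edgeR) in double-deficient cDC1s, the former 0.42 without XBP1ΔDC replicate 1. Slco5a1 was at 11.9, 11.6, 8.87 and 7.05 CPM in control, 24.6, 18.6, 5.13 and 15.02 CPM in XBP1ΔDC and 13.4, 8.199 and 39.0 CPM in double-deficient pools. Its double-deficient mean rested on replicate 3, replicate 2 lay within the control range, and the log2 fold change was 1.03 (SE 0.512, adjusted p = 0.485 from edgeR) in double-deficient cDC1s and 0.13 without replicate 3. Marcksl1, Tmem123, Apol7c and Slco5a1 had p above 0.05 in every comparison, and Apol7c ranged from 4.90 to 58.7 CPM with the widest ratio of highest to lowest pool of any member.

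The genes of dendritic cell migration were mostly higher too. Of 21 such genes tested, 19 were higher than control in double-deficient pools, where 49.4% of all genes were, and 20 in XBP1ΔDC, where 51.2% were. Those higher with an unadjusted p under 0.05 were 8 in double-deficient pools, against 5.73% of all genes, and 1 in XBP1ΔDC, against 2.67%. Ccl5, a chemokine for T cells, had the greatest log2 fold change in double-deficient cDC1s, 1.53 (adjusted p = 0.185 from edgeR), at 236, 154, 278 and 148 CPM in control, 505, 377, 151 and 320.1 CPM in XBP1ΔDC and 379.9, 336 and 1051 CPM in double-deficient pools. Double-deficient replicate 3 was far above the rest, and without it the log2 fold change of Ccl5 was 0.81. Epsti1 (0.79), Ccr7 (0.78), Stap2 (0.80) and Cd63 (0.82) were next by p, and Stap2 (0.83) was the gene in XBP1ΔDC. The mean score of the migration list was lowest in control replicate 2 (-1.24) and highest in double-deficient replicate 3 (1.28), the same pools as for the members. The counts of this list were not taken again without these pools. Of 27 other checkpoint and costimulation genes, 17 (63%) were higher than control in each deleted group, against 49.4% of all genes in double-deficient and 51.2% in XBP1ΔDC pools. Their median log2 fold change was 0.085 in double-deficient and 0.045 in XBP1ΔDC cDC1s. For the 27, counts with an unadjusted p under 0.05 were 2 higher and 3 lower in double-deficient pools, against 5.73% and 5.44% of all genes, 0 higher and 2 lower in XBP1ΔDC, against 2.67% and 4.95%, and 1 each way between the deleted groups, against 2.79% and 2.5%. In double-deficient cDC1s, Cd70, a costimulatory ligand (1.15), and the antigen receptor Ly75 (0.47) had an unadjusted p under 0.05 and were higher. Cd24a (-0.23), Cd48 (-0.20) and Btla (-0.23) had one and were lower. Cd48 (-0.20) and Cd52 (-0.15) were lower in XBP1ΔDC with such a p, and between the deleted groups Btla was lower (-0.26) and Cd70 higher (0.88) in double-deficient cDC1s.

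**Figure D4:**
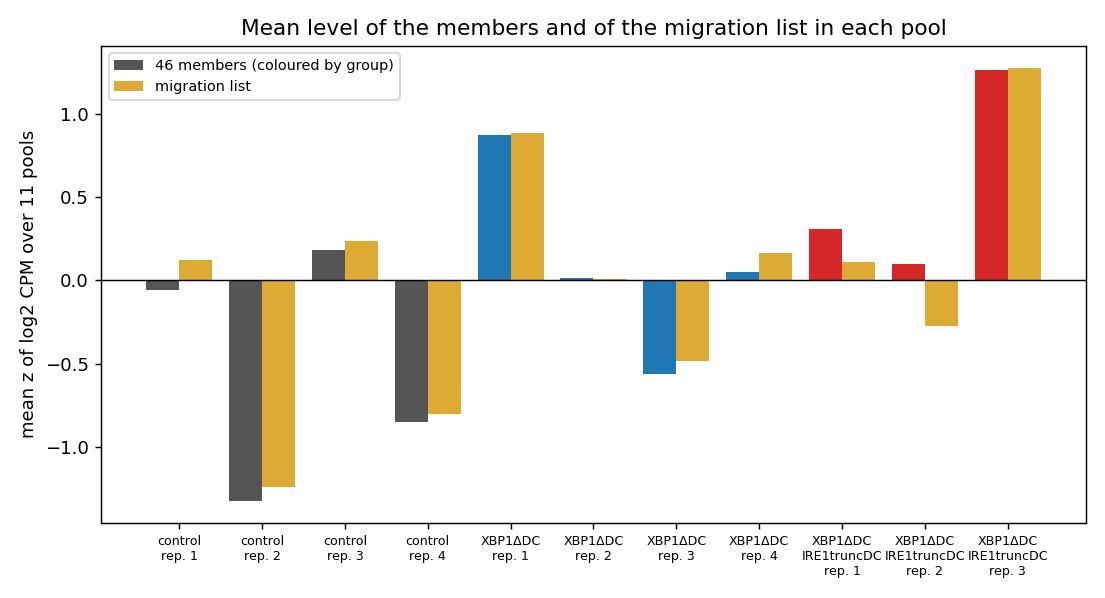
Mean z score of log2 CPM (vertical axis) of the 46 members (coloured by group) and of the tested migration genes (yellow) in each of the 11 pools (horizontal axis). Both bars are lowest in control replicate 2 (-1.32 and -1.24) and highest in double-deficient replicate 3 (1.26 and 1.28).

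**Figure D5:**
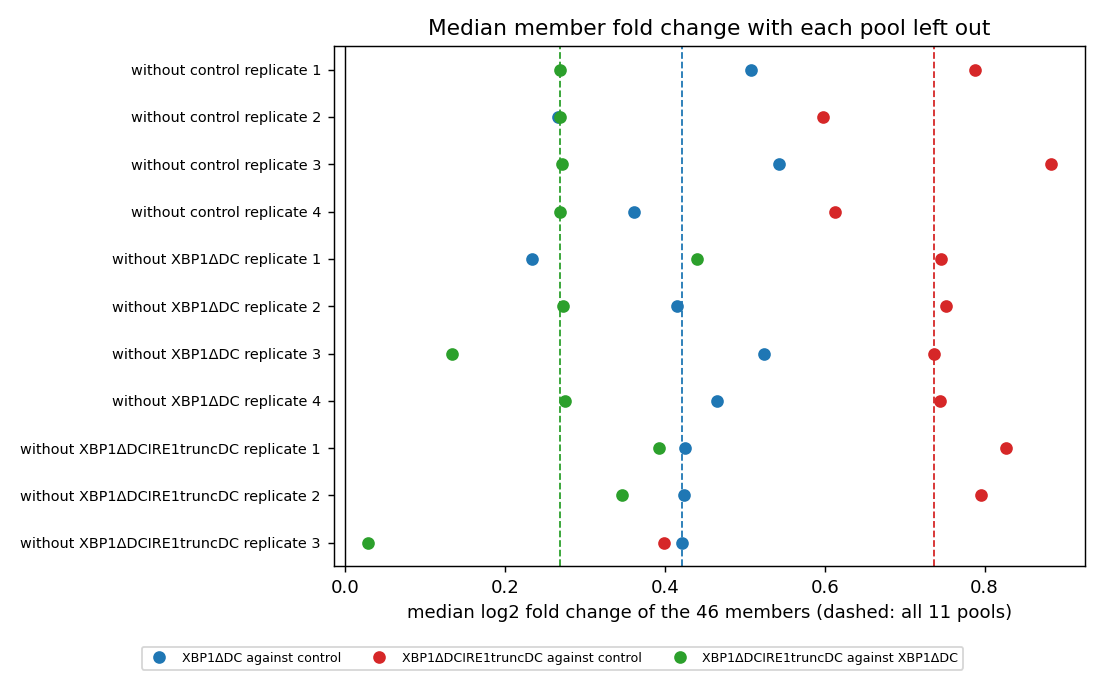
Median log2 fold change of the 46 members (horizontal axis) in the 3 comparisons (colours) when each pool in turn is left out (rows), with dashed lines at the values from all 11 pools. The double-deficient comparison with control drops from 0.74 to 0.40, and that with XBP1ΔDC from 0.27 to 0.029, without double-deficient replicate 3.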

How the data were processed

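RNA-seq counts were deposited for 11 pools, 4 control, 4 XBP1ΔDC and 3 double-deficient. Per the labels and the study's methods, the authors trimmed reads with Trimmomatic 0.39, checked them with FastQC 0.11.8, aligned them to mm10 with STAR 2.7.3a and counted them per gene with HTSeqCount. The annotation and strand setting of the counting are not given in the sources used here. The deposited counts were used as they stand, and the second deposited table holds log2 CPM values that the authors made with voom (limma 3.42.2), which a voom fit of the same counts matched within 0.000691 for the members.

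The test was edgeR's quasi-likelihood test (edgeR 4.0.16, R 4.3.3) on genes that exceeded 1 CPM in 4 or more pools, after TMM scaling and in a single fit of the 3 groups, and p-values were adjusted by Benjamini-Hochberg over every tested gene. Values in CPM use TMM library sizes, and z scores use log2 CPM with a prior count of 2. Alternatives were DESeq2 1.42.0, limma-voom and limma 3.58.1 on the deposited log2 values, other scalings and filters, fits of only the groups compared, the replicate number as a block, and each pool left out in turn. The scripts were tested on simulated data. The pools are separate samples, so p-values measure the spread between pools. The total counts of 21089065 to 26843486 per pool limit only the lowest members.

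Members and gene lists were chosen with earlier results of these data known. Values in every pool are given for members with an unadjusted p under 0.05 in any comparison and for Cd274, Pdcd1lg2, Cd200, Cd40, Cd80, Cd86, Fscn1, Il12b, Relb, Nfkb1, Ido1, Havcr2 and Il4i1. Those of Slco5a1 were added after its values were seen, and the other members are given by range, some with a fold change. Gene positions and exon lengths came from GENCODE vM21 and promoter windows from RefSeq (GRCm38.p6). The motif was searched on both strands, and overlapping matches were merged in the printed sequences.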

Additional observations from a re-analysis of the deposited data

Results flagged for a closer look

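Pools of a group of 4 were compared for each of the 46 members, which made 92 groups. By Dixon's test 2 of the 92 held a pool far from the others. Chance gives such a pool in about 1 of 20 groups, so these 2 are no more than chance would give. Cd86 was lowest in control replicate 2, at 296 CPM, while the other control pools stood at 327 to 329.8 CPM. Il6 was highest in XBP1ΔDC replicate 1, at 3.26 CPM, while the other pools of that group stood at 2.17 to 2.29 CPM. Groups of 3 were not tested, so the double-deficient pools, among them the pool with the highest value of most members, could not be judged this way. Why these pools differed was not tested.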

How the results depend on the processing

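Of 941 recomputed log2 fold changes of named genes (43 results), 920 kept their direction and their side of the threshold. Bcl2l1 kept its call in 12 of 22 settings, among them DESeq2 (adjusted p = 3.27e-04 from DESeq2) and limma-voom (adjusted p = 0.0412 from limma-voom). It lost the call in 10 settings, among them the replicate block (adjusted p = 0.183 from edgeR). Over all named genes, 9 values turned sign. Turned values were all near 0 in double-deficient cDC1s against control: Cd86 without control replicate 1, 3 or 4 (0.0027, 6e-04 and 0.0041), without XBP1ΔDC replicate 2 (7e-04) or without double-deficient replicate 2 (0.037), Havcr2 (0.097) and Nfkb1 (0.0079) without double-deficient replicate 2, and Ido1 with limma-voom (-0.0014) or limma on the deposited values (-0.090). DESeq2 called 2 members in double-deficient cDC1s, and 0 in the other comparisons. With each pool left out, these values ran from -0.047 to 0.037 for Cd86, from -0.21 to 0.097 for Havcr2 and from -0.12 to 0.0079 for Nfkb1. The cause of these shifts was not tested.

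Members with an unadjusted p under 0.05 ranged from 1 to 23 (main value 5) in XBP1ΔDC against control when each pool was left out, from 7 to 33 (main value 29) in double-deficient against control and from 1 to 11 (main value 2) between the deleted groups. In the first they were 9 with library size scaling, 8 with only the groups compared and 2 without both control replicate 2 and double-deficient replicate 3, which were chosen after seeing the data. Leaving out both gave 2 in the second and 1 in the third. The third was 1 with library size scaling and 4 with only the groups compared. Members higher between the deleted groups were 24 to 42 with each pool left out, and 24 with both out. The median member against control was 0.40 to 0.88 in double-deficient cDC1s with each pool left out and 0.29 with both out. In XBP1ΔDC it was 0.23 to 0.54 with each pool left out, and between the deleted groups it was 0.029 to 0.44. The other quasi-likelihood method of edgeR, also added after seeing the data, called 0 members. Other scalings moved the median of all genes to between -0.031 and 0.034.

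Replicate numbers were not taken as pairs in the main fit. Deviations of pools with the same number correlated at 0.098 on average (0.0418 to 0.133) between XBP1ΔDC and control, 0.0035 between double-deficient and control and -0.221 between the deleted groups. For pools with different numbers the averages were -0.033 (-0.202 to 0.249), -0.0012 and 0.074 in the same order. With so few pools these values cannot settle whether the numbers pair the pools. With a replicate block, 0 members were called and 8, 23 and 1 members had an unadjusted p under 0.05 in the same order, while DEGs over all genes went from 54, 23 and 8 to 40, 11 and 3. Depth limits Ido1, Il6 and the 4 listed genes left out, whose levels rest on few counts.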
